A study of Mus musculus with 6 samples.

Results

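Marrow macrophages carry a shared set of transcripts for complement, iron export, adhesion, debris clearance and scavenging, and 10 such genes were followed here in RNA from haematopoietic stem and progenitor cells. They are C1qa, C1qb, C1qc, Slc40a1, Vcam1, Cd163, Mrc1, Mertk, Axl and Spic, chosen by name from the 55487 genes of the deposited table, where each had 1 row. The RNA came from mouse bone marrow LSK cells, a lineage-negative fraction with Sca-1 and Kit on its surface that contains stem cells and early progenitors. Of the 6 libraries, 3 came from mice without Mc5r (labelled Mc5r-/- and Mc5r mutant), the gene of a Gs-coupled receptor for melanocortin peptides, and 3 from littermates with the wild-type gene. The series describes all mice as irradiated; dose, time, age and strain are not given. Since wild-type and Mc5r-null mice share the irradiation, the only comparison is between the genotypes. The labels do not tie libraries to animals, so every SD and p-value refers to variation among libraries that could be technical.

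Central macrophages of erythroblastic islands hold maturing red cells through VCAM1, engulf the nuclei these cells expel and return the iron of worn red cells to the blood through ferroportin, the product of Slc40a1. The transcription factor SPI-C is needed for macrophages of this kind, CD163 takes up haemoglobin bound to haptoglobin, and MERTK and AXL are receptor kinases that recognise dying cells through bridging proteins. C1q, built from A, B and C chains encoded by C1qa, C1qb and C1qc, starts the classical complement pathway and tags dying cells. Several of these genes are not exclusive to macrophages: Vcam1 is also made by stromal and endothelial cells and by some progenitors, Slc40a1 by erythroid cells, and Axl by stromal and endothelial cells.

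An LSK gate is meant to exclude mature macrophages, and the libraries held transcripts of the gate's own markers. The levels of these markers do not measure how pure the sorted cells were. Kit averaged 241 ± 2.95 CPM (CPM, gene counts scaled to a common library total, mean ± SD, n = 3 per genotype here and throughout) in wild type against 256 ± 5.21 in Mc5r-null, and Ly6a, which encodes Sca-1, averaged 59.3 ± 10.6 against 66.6 ± 9.54 CPM (edgeR adjusted p = 0.446). Kit rose 1.09-fold (edgeR adjusted p = 0.00403, 0.0711 with DESeq2), and of 9 LSK-defining genes, Kit included, 6 were higher and none lower, with a median log2 fold change of 0.54. Of all genes tested, 16.8% were higher and 16.1% lower at an edgeR adjusted p under 0.05, with a median of -0.0047. The part of the LSK-defining genes in the levels of the 10 genes was not tested. Library totals ran from 14903723 to 14953169 counts in wild type and from 13983016 to 14076870 in Mc5r-null. Mc5r itself had 181, 157 and 198 counts in wild type and 0, 0 and 1 in Mc5r-null. Xist, the RNA of the inactive X chromosome, had 1224, 1167 and 1281 counts in wild type and 0, 2 and 2 in Mc5r-null, while the Y-linked Ddx3y, Eif2s3y, Kdm5d and Uty were present in all 6 libraries. The labels give no sex, and this difference in Xist coincides with genotype, so for every gene below sex composition and genotype cannot be told apart.

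The gene positions are those of the deposited table (GRCm38), which matched GENCODE mouse release M21 for all 10 genes. C1qb (chromosome 4, 136880129 to 136886187), C1qc (chromosome 4, 136889804 to 136893065) and C1qa (chromosome 4, 136895917 to 136898803) lie side by side on the minus strand within 18675 bases, with no other annotated gene among them. Slc40a1 lies on chromosome 1 (45908068 to 45926523, minus strand) and Vcam1 on chromosome 3 (116109949 to 116129688, minus strand). Mrc1 (14229392 to 14332057) and Mertk (128698956 to 128802894) are both on the plus strand of chromosome 2. Cd163 is on chromosome 6 (124304656 to 124330527, plus strand), Axl on chromosome 7 (25757273 to 25788705, minus strand) and Spic on chromosome 10 (88674772 to 88685015, minus strand). Annotated antisense genes overlap Vcam1 (Gm43109) and Mertk (Gm14011). Whether counting used strand is not stated, so reads of these pairs may not be separated.

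RefSeq promoter sequences (GRCm38.p6) were found for 7 of the 10 genes: C1qb, C1qc, Cd163, Mrc1, Mertk, Axl and Spic. In the 250 bases before each start, both strands were searched for GAGGAA, a core of the kind bound by PU.1 and its relative SPI-C. The starts are those of RefSeq and can differ from the ends of the gene spans above. The Spic window (chr10:88683024-88683273) lies inside the span given for Spic, and the windows of C1qc and Mrc1 overlap their spans. GAGGAA was present in 4 of the 7 windows and in 23.3% of all 32851 such windows. The 4 are shown because they put the members with this core side by side: C1qb and C1qc, neighbouring genes of one complex, Axl, which passed the test between the genotypes, and Mrc1, which had 3 matches. Capitals mark GAGGAA or its reverse complement, 5′ to 3′ on the gene's strand. The windows are chr4:136886201-136886450 for C1qb, chr4:136892915-136893164 for C1qc and chr7:25788734-25788983 for Axl, all on the minus strand, and chr2:14229164-14229413 for Mrc1 on the plus strand.
C1qb: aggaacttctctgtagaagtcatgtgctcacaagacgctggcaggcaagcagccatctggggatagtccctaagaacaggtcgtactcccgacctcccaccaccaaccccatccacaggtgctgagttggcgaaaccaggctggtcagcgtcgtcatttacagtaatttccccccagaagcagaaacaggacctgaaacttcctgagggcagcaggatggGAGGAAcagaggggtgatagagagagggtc
C1qc: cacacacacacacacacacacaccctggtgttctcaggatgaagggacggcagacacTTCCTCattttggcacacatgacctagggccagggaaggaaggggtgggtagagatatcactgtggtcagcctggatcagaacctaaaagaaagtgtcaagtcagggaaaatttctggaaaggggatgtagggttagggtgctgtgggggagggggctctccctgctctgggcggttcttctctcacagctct
Axl: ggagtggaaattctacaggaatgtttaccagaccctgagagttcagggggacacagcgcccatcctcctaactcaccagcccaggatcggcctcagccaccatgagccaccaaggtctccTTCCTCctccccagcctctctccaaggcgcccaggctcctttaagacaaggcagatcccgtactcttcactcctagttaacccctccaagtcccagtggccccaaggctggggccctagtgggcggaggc
Mrc1: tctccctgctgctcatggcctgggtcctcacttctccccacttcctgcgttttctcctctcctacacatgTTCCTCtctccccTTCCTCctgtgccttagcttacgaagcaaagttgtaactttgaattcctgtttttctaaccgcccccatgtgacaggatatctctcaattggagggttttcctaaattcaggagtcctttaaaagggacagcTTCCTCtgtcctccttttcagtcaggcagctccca

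The match began 30 bases before the start in C1qb, 193 in C1qc and 130 in Axl, and 180, 167 and 35 bases before it in Mrc1. The windows of Cd163, Mertk and Spic do not hold these letters. None of the 7 windows held TGAGTCAGC, the letters of a strong NRF2 or BACH1 site (0.3% of all windows), TTGCNNAA, a core of C/EBP sites (9.6%), or TGACGTCA, the cAMP response element (1.5%). A match is a description of the letters, not of binding.

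The 10 genes did not move as a block. C1qa and Axl were higher and Slc40a1 and Vcam1 lower in Mc5r-null libraries, C1qb, Mrc1 and Cd163 were tested and did not pass, and C1qc, Mertk and Spic had too few counts for the filter. Of the 7 genes tested, 2 were thus called higher and 2 lower (edgeR quasi-likelihood test, Benjamini-Hochberg adjusted p under 0.05 over 15257 genes). Of all genes tested, 16.8% were called higher and 16.1% lower, 32.9% together. The counts of called list genes given below stand beside these shares. In C1qa and C1qb fewer than 3 wild-type libraries reached the minimum count, so these genes entered the test through their Mc5r-null counts. In the fit with no filter, which covers all 10, C1qa, Axl, Slc40a1 and Vcam1 were called in the same directions, 2 higher and 2 lower, where 9.58% of 26384 genes with a count were called higher and 9.18% lower (18.8% together). In that fit the median log2 fold change of the 10 genes was 0.73 beside 0.03 for all genes with a count. The median gives genes with few counts the same weight as the others. The summed level of the 10 genes, mostly Slc40a1 and Vcam1, was 67.8 to 77.7 CPM in wild type and 58.9 to 66.2 CPM in Mc5r-null. CPM values of the genotypes did not overlap for 8 of the 10, with 6 higher and 2 lower in Mc5r-null, while of all genes with a count 17.0% were higher and 17.9% lower without overlap (35.0% together). In RNA of a sorted population, fewer cells of a type and less RNA per cell cannot be told apart.

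**Figure D1:**
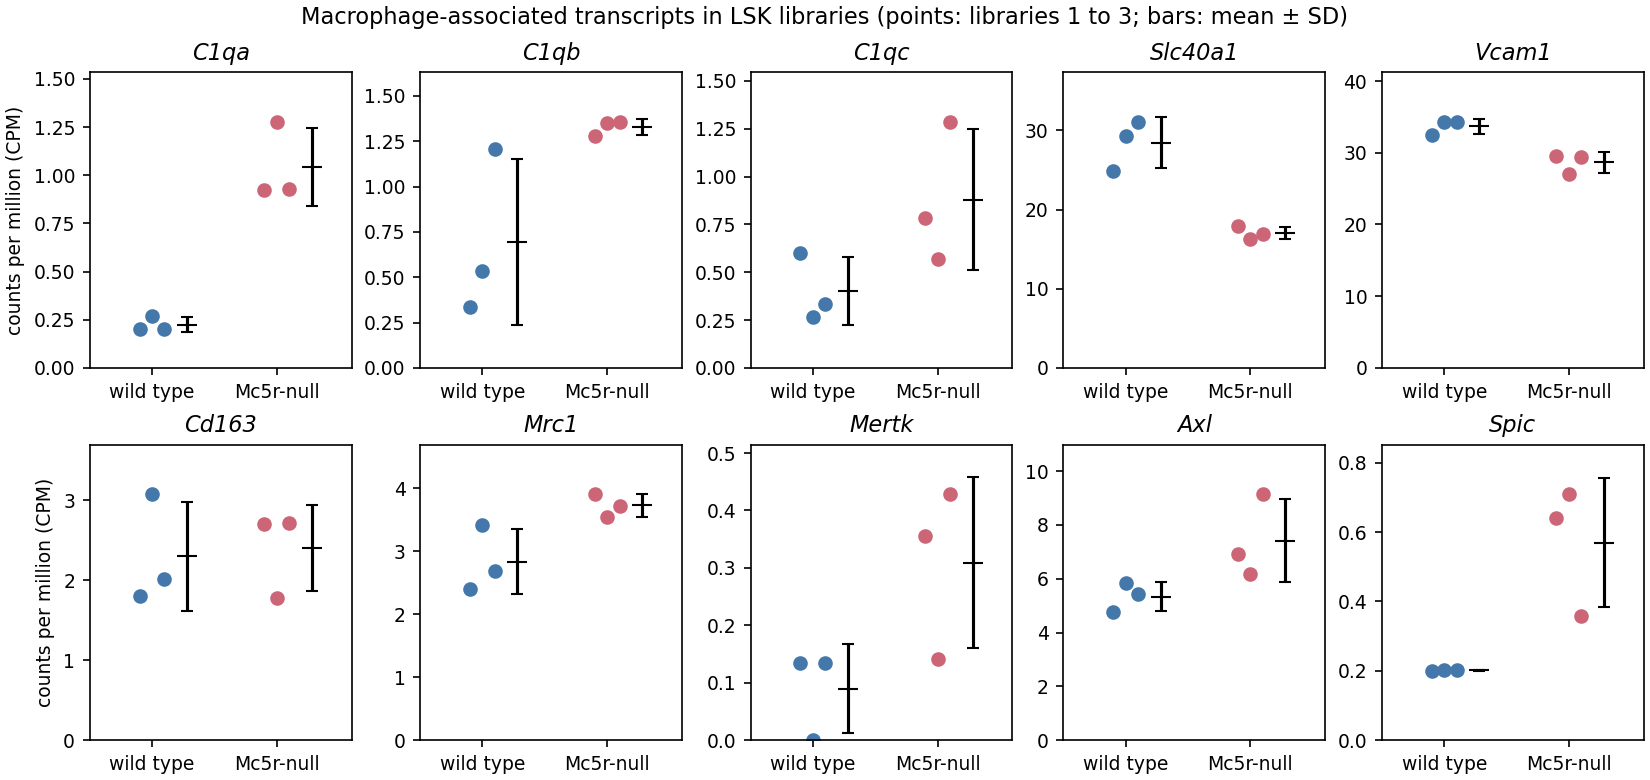
CPM of each gene in each library (points), with the mean and SD of the 3 libraries of a genotype beside them; each panel has its own axis from 0. C1qa sits at 0.201 to 0.268 CPM in wild type and at 0.925 to 1.28 CPM in Mc5r-null, Slc40a1 lies lower in all 3 Mc5r-null libraries, and Cd163 overlaps.

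Transcripts of the complement chains were scarce in both genotypes. C1qa passed the test, C1qb did not, and C1qc was not tested in the filtered fit. C1qa and C1qb entered the test through their Mc5r-null counts. C1qa, for the A chain, had 3, 4 and 3 counts in wild-type libraries 1, 2 and 3 and 13, 18 and 13 in Mc5r-null libraries 1, 2 and 3. Every Mc5r-null library lay above every wild-type library, with means of 0.223 ± 0.0387 and 1.04 ± 0.203 CPM. The gene rose 4.65-fold (log2 fold change 2.22 ± 0.37 SE, edgeR adjusted p = 0.00228). From the summed counts of 10 and 44 the ratio was 4.68 with an exact 95% interval of 2.32 to 10.4, which covers counting error only, as do all intervals given here.

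C1qb, for the B chain, had 5, 8 and 18 counts in wild type and 18, 19 and 19 in Mc5r-null. The Mc5r-null libraries were close together, and wild-type library 3 reached nearly their level (1.21 CPM against 1.28 CPM for the lowest of them). The log2 fold change was 0.97 ± 0.40 SE, which did not pass (edgeR adjusted p = 0.101), and the ratio of summed counts was 1.92 (95% interval 1.22 to 3.08). Without wild-type library 3 the log2 fold change of C1qb was 1.62 and passed (edgeR adjusted p = 0.0117). C1qb did not pass with any other library left out (edgeR adjusted p = 0.166 to 0.240).

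C1qc, for the C chain, had 9, 4 and 5 counts in wild type and 11, 8 and 18 in Mc5r-null. Wild-type library 1 lay above Mc5r-null library 2, so the genotypes overlapped. The gene was not tested in the filtered fit, an exact permutation test of its CPM gave p = 0.2 (two-sided, n = 3 each, smallest possible 0.1), and the ratio of summed counts was 2.19 (95% interval 1.21 to 4.08). With no filter its log2 fold change was 1.14 ± 0.44 SE (edgeR adjusted p = 0.0982).

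Summed over the chains, C1q counts were 17, 16 and 26 in wild type and 42, 45 and 50 in Mc5r-null, or 1.32 ± 0.371 and 3.25 ± 0.298 CPM. The sums did not overlap between genotypes, and their ratio was 2.47 (95% interval 1.81 to 3.41). C1qa made up 10 of 59 C1q counts in wild type and 44 of 137 in Mc5r-null. Whether the chains differ from each other in their change was not tested.

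The other complement genes did not share one direction. Of 16 fixed genes of the pathway, 11 were tested, 3 were higher and 5 lower, and the median log2 fold change was -0.08 (-0.0047 for all genes tested). C3, the central component of the cascade, fell from 345 ± 3.34 to 203 ± 0.752 CPM (1.66-fold, edgeR adjusted p = 3.74e-08), and Cfp, which encodes properdin, a stabiliser of the alternative pathway convertase, fell 1.45-fold. Cd93, which encodes a C1q-receptor-related surface protein of progenitors and endothelium, fell 1.17-fold. C4b, a component of the classical pathway downstream of C1, rose from 15.7 ± 0.688 to 25.1 ± 1.65 CPM (1.63-fold, edgeR adjusted p = 0.000236).

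Slc40a1, the iron exporter gene, was among the most abundant of the 10 and fell. Its counts were 372, 438 and 464 in wild type and 252, 230 and 236 in Mc5r-null. The genotypes did not overlap, and the means were 28.4 ± 3.22 and 17.0 ± 0.809 CPM. The decrease was 1.63-fold (log2 fold change -0.70 ± 0.09 SE, edgeR adjusted p = 0.000686). It held under all 14 alternatives run, with an adjusted p of at most 0.00474.

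Genes around iron handling were mixed. Of 19 genes of haem and iron recycling, 16 were tested, 1 was higher and 5 lower, and the median log2 fold change was -0.11. The iron chaperone gene Pcbp1 (1.13-fold), the oxidative stress factor gene Nfe2l2 (1.32-fold), the haem transporter gene Slc48a1 (1.12-fold) and the biliverdin reductase gene Blvra (1.31-fold) fell. The member that rose was Hmox1, for the haem-degrading enzyme haem oxygenase 1, with 56, 74 and 70 counts in wild type and 78, 94 and 89 in Mc5r-null (1.42-fold, edgeR adjusted p = 0.027). Hmox1 was not called with DESeq2 or without wild-type library 1 or 3 or Mc5r-null library 2 or 3 (adjusted p of at most 0.123).

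Erythroid cells also express Slc40a1, and their markers moved the other way. Of 12 erythroid genes 11 were higher and none lower, all 12 had counts in at least 1 library of each genotype, and their summed level was 142.7 to 144.9 CPM in wild type and 348.6 to 357.8 CPM in Mc5r-null. The alpha-globin gene Hba-a1 rose 8.17-fold. Their part in the level of Slc40a1 was not tested.

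Vcam1, for the adhesion molecule that binds the integrin VLA-4, had 486, 511 and 512 counts in wild type and 416, 380 and 411 in Mc5r-null. The genotypes did not overlap, with means of 33.7 ± 1.04 and 28.7 ± 1.45 CPM. The decrease was small, 1.148-fold (log2 fold change -0.20 ± 0.06 SE, edgeR adjusted p = 0.0319). Vcam1 was not called with DESeq2 (adjusted p = 0.184) or without wild-type library 2 (0.0824) or 3 (0.0830) or Mc5r-null library 2 (0.103) or 3 (0.0570), while the log2 fold change stayed between -0.23 and -0.16 in all leave-one-out fits.

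Of 10 genes for VCAM1 ligands and related adhesion partners, all were tested, 3 were higher and 4 lower, and the median log2 fold change was -0.03. The VLA-4 subunit genes did not pass: Itga4 had 190 ± 1.5 and 177 ± 4.35 CPM (edgeR adjusted p = 0.0651, but 0.0488 with upper-quartile scaling), and Itgb1 had 262 ± 2.94 and 258 ± 3.80 CPM (edgeR adjusted p = 0.819). Icam4, a red cell adhesion molecule of erythroblastic islands, rose 1.63-fold and Itga9, for another integrin chain that binds VCAM1, rose 1.49-fold, while the leukocyte integrin chain gene Itgb2 (1.22-fold) and the selectin ligand gene Selplg (1.10-fold) fell. Icam4 and Selplg were not called with DESeq2 (adjusted p = 0.0853 and 0.0515), nor was Itga9, which was also lost without wild-type library 2 or 3 or Mc5r-null library 3 (0.0582 at the most over all alternatives).

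Cd163, for the haemoglobin scavenger receptor, had 27, 46 and 30 counts in wild type and 38, 25 and 38 in Mc5r-null. The genotypes overlapped throughout, with 2.30 ± 0.685 and 2.40 ± 0.540 CPM. The log2 fold change was 0.09 ± 0.26 SE (edgeR adjusted p = 0.818), and the ratio of summed counts was 1.04 (95% interval 0.785 to 1.39).

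Mrc1, for the mannose receptor of macrophages and sinusoidal endothelium, had 36, 51 and 40 counts in wild type and 55, 50 and 52 in Mc5r-null. In CPM the genotypes did not overlap, by a narrow margin (3.42 CPM in wild-type library 2 and 3.55 CPM in Mc5r-null library 2). The log2 fold change was 0.43 ± 0.17 SE and did not pass (edgeR adjusted p = 0.0826), although it passed without wild-type library 2 (log2 fold change 0.58, adjusted p = 0.0340). Mrc1 did not pass with any other library left out (edgeR adjusted p = 0.124 to 0.214).

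Of 12 other scavenger receptors and lectins 8 were tested, 1 was higher and 5 lower, and the median log2 fold change was -0.34. DESeq2 called 2 of them lower, and 3 to 5 were called lower when a library was left out (3 without wild-type library 1, 2 or 3 or Mc5r-null library 2 or 3). Clec7a, for the beta-glucan receptor dectin-1, fell from 13.4 ± 0.161 to 5.39 ± 0.118 CPM (2.42-fold, edgeR adjusted p = 1.29e-05), the oxidised LDL receptor gene Olr1 fell 1.43-fold and the HDL receptor gene Scarb1 1.12-fold, though not with DESeq2 (adjusted p = 0.0705). The gene that rose was Stab2, a hyaluronan scavenger receptor of sinusoidal endothelium (4.50-fold, edgeR adjusted p = 0.00263). Stab2 had 8, 6 and 15 counts in wild type and 37, 55 and 29 in Mc5r-null. It entered the test through its Mc5r-null counts.

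Axl, for one of the TAM receptor kinases that bind apoptotic cells through GAS6, had 71, 87 and 81 counts in wild type and 97, 87 and 128 in Mc5r-null. In CPM the genotypes were separate by a narrow margin (5.83 CPM in wild-type library 2 and 6.18 CPM in Mc5r-null library 2), and Mc5r-null library 3 was the highest. The means were 5.34 ± 0.546 and 7.41 ± 1.55 CPM, a 1.42-fold rise (log2 fold change 0.51 ± 0.16 SE, edgeR adjusted p = 0.0447). The call was lost with DESeq2 (adjusted p = 0.124), with limma-voom (0.0666) and without wild-type library 1 (0.130), 2 (0.0632) or 3 (0.0891) or Mc5r-null library 1 (0.0652) or 3 (0.129). Without Mc5r-null library 3 the log2 fold change of Axl was 0.33.

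Mertk, for the TAM kinase most typical of macrophages, was close to the limit of detection. It had 2, 0 and 2 counts in wild type and 5, 2 and 6 in Mc5r-null, a ratio of 3.46 (95% interval 1.07 to 14.6). In CPM the genotypes did not overlap, and the exact permutation test gave p = 0.1 (two-sided, n = 3 each), the smallest it can give. In the fit with no filter its log2 fold change was 1.72 ± 0.83 SE (edgeR adjusted p = 0.197).

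The remaining TAM kinase gene and the TAM ligand genes were on the list of apoptotic cell clearance. Of its 19 genes 17 were tested, 4 were higher and 4 lower, and the median log2 fold change was 0.12. Among all genes tested, 16.8% were higher and 16.1% lower. The ligand gene Gas6 rose from 4.06 ± 0.673 to 8.07 ± 1.26 CPM (2.03-fold, edgeR adjusted p = 0.00205), with 66, 67 and 49 counts in wild type and 128, 94 and 118 in Mc5r-null. Tyro3 rose 1.94-fold from 12, 16 and 19 to 31, 30 and 23 counts (edgeR adjusted p = 0.0173), but was not called with DESeq2 or without wild-type library 1 or Mc5r-null library 1 or 2 (adjusted p of at most 0.106). Pros1, for the other TAM ligand, protein S, had 7.81 ± 0.423 and 6.82 ± 1.35 CPM and did not pass (edgeR adjusted p = 0.430). Among the engulfment machinery, the GTPase gene Rac1 fell from 316 ± 2.38 to 94.99 ± 6.37 CPM (3.25-fold, edgeR adjusted p = 3.35e-08), the annexin gene Anxa1 fell 1.56-fold, and Dock2, for a haematopoietic exchange factor of RAC, rose 1.12-fold.

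Stromal and endothelial cells also express Vcam1, Axl and Gas6. Of 13 of their genes, 9 were tested, 6 were higher and none lower, and the summed level was 78.2 to 84.9 CPM in wild type and 112.0 to 114.2 CPM in Mc5r-null. The VEGF receptor gene Kdr had 12, 7 and 7 counts in wild type and 34, 35 and 39 in Mc5r-null. Its Mc5r-null counts brought it into the test. Sparc rose 3.24-fold, and the endothelial cadherin gene Cdh5 had 2.55 ± 0.303 and 3.09 ± 0.154 CPM and did not pass (edgeR adjusted p = 0.183). The niche chemokine gene Cxcl12 had 3, 0 and 1 counts in wild type and 17, 9 and 8 in Mc5r-null, and the defining stromal genes Lepr and Col3a1 had 0 counts in all 6 libraries. Their part in the levels of Vcam1, Axl and Gas6 was not tested.

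Spic, for the ETS factor of red pulp and marrow macrophages, had 3, 3 and 3 counts in wild type and 9, 10 and 5 in Mc5r-null. The genotypes did not overlap (exact permutation test p = 0.1, two-sided, n = 3 each, the smallest possible). The ratio of summed counts was 2.84 (95% interval 1.27 to 6.93), and in the fit with no filter the log2 fold change was 1.49 ± 0.50 SE (edgeR adjusted p = 0.0560). That fit gave edgeR adjusted p = 0.0346 without Mc5r-null library 3, the lowest of its group. With any other library left out it gave 0.115 to 0.177.

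**Figure D2:**
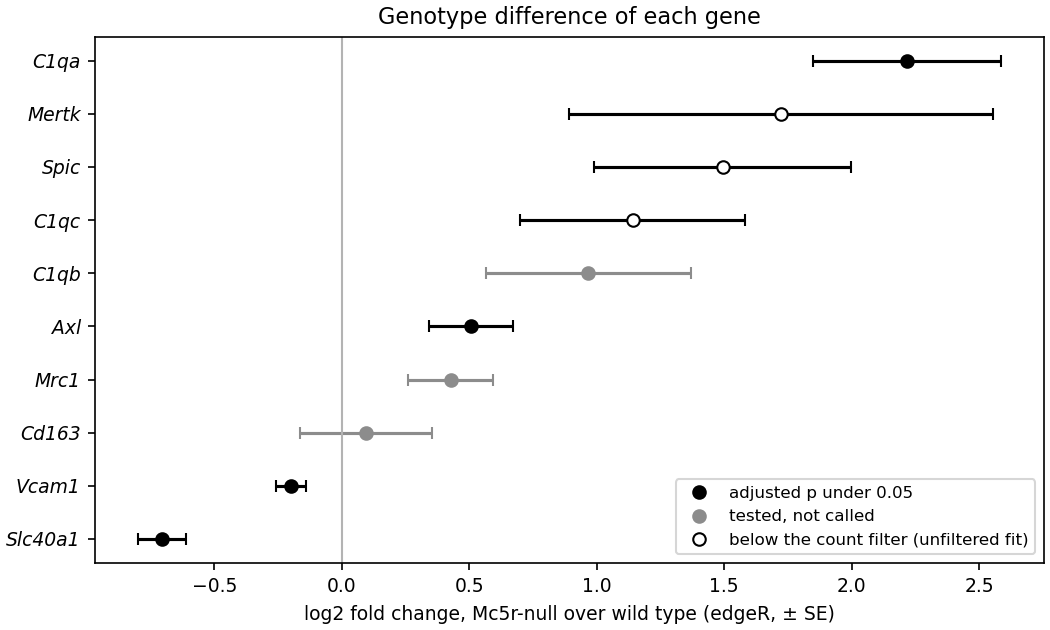
Log2 fold change of Mc5r-null over wild type for the 10 genes, with bars of 1 SE; filled black points passed an adjusted p under 0.05, grey points were tested and did not pass, and open points come from the fit with no filter. The values run from -0.70 for Slc40a1 to 2.22 for C1qa, and the bars are widest for the genes with fewest counts.

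Transcription factor genes of macrophages were called in both directions, as were 16.8% (higher) and 16.1% (lower) of all genes tested. Of 14 such genes beside Spic, 13 were tested, 3 were higher and 3 lower, and the median log2 fold change was -0.01. Maf, for a factor that is active in differentiated macrophages, rose from 5.404 ± 1.01 to 9.48 ± 0.707 CPM (1.79-fold, edgeR adjusted p = 0.00265). Rxra, for a retinoid receptor, rose 1.46-fold. Spi1, for PU.1, the factor that binds cores of the GAGGAA kind shown above, fell 1.13-fold from 225 ± 2.97 to 194 ± 3.36 CPM.

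General macrophage and monocyte genes were lower while C1qa was higher. Of 18 macrophage identity genes 16 were tested, 13 were lower and 1 higher, the median log2 fold change was -0.75, and the summed level was 826.2 to 869.3 CPM in wild type and 628.0 to 649.6 CPM in Mc5r-null. The Fc receptor genes Fcgr3 (1.78-fold) and Fcer1g (1.57-fold), the growth factor receptor gene Csf1r (1.76-fold) and the lipopolysaccharide co-receptor gene Cd14 (1.75-fold) fell. Adgre1, for the macrophage antigen F4/80, fell from 83, 89 and 82 to 57, 34 and 50 counts (1.65-fold, edgeR adjusted p = 0.0158), Cd68 fell 1.29-fold, and Fcgr1, for CD64, fell from 22, 19 and 22 to 10, 10 and 4 counts (edgeR adjusted p = 0.0197). Fcgr1 was not called with DESeq2 or without wild-type library 1 or 3 (adjusted p of at most 0.1004). Fcgr1, Aif1 and Trem2, all among the 13 lower genes, entered the test through their wild-type counts. The gene that rose was Lgmn, for a lysosomal protease, from 14.6 ± 0.543 to 22.9 ± 1.94 CPM (1.61-fold, edgeR adjusted p = 0.00042).

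Several defining markers of settled tissue macrophages were at or near 0 counts in both genotypes. Siglec1, for CD169 of marrow macrophages, had 0, 0 and 2 counts in wild type and 3, 5 and 1 in Mc5r-null. Of 14 resident macrophage genes 6 were tested, 1 was higher and 0 lower, and Vsig4, Marco and Cd209f had 0 counts in all 6 libraries. Others of this list were abundant and were not called: Maea, for an erythroblast and macrophage attachment protein that many cells make, had 151 ± 3.71 and 143 ± 1.22 CPM (edgeR adjusted p = 0.257), and the transferrin gene Trf had 102 ± 3.87 and 88.9 ± 9.29 CPM (edgeR adjusted p = 0.152). Sirpa, for the receptor of the CD47 signal, had 84.1 ± 33.7 and 70.1 ± 29.9 CPM, and the lectin gene Clec10a 10.5 ± 1.76 and 7.90 ± 1.97 CPM (edgeR adjusted p = 0.787 and 0.210). The summed level of the list was 304.1 to 377.6 CPM in wild type and 288.2 to 337.3 CPM in Mc5r-null. Timd4, an apoptotic cell receptor, had 0, 2 and 0 counts in wild type and 0 in every Mc5r-null library, and Clec4f, a Kupffer cell lectin, had 1, 4 and 1 and then 0. Cd5l, a secreted macrophage protein induced by LXR, had 0, 1 and 0 counts in wild type and 9, 3 and 6 in Mc5r-null (edgeR adjusted p = 0.0124 in the fit with no filter). Among the tested genes of this list, the one that rose was Stab1, a scavenger receptor of macrophages and sinusoidal endothelium, from 32, 29 and 31 to 59, 66 and 78 counts (2.40-fold, edgeR adjusted p = 0.000552). The 10 genes are thus grouped by known function, and in these libraries 8 of the 14 resident macrophage genes were too low to test. Neighbouring types also shifted: of 12 monocyte and neutrophil genes 11 were lower and none higher (summed 14860 to 15828 CPM in wild type, 9728 to 10018 in Mc5r-null), of 7 dendritic cell genes tested 2 were higher and 4 lower, and all 8 plasma cell genes were higher. Their part in the levels of the 10 genes was not tested.

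**Figure D3:**
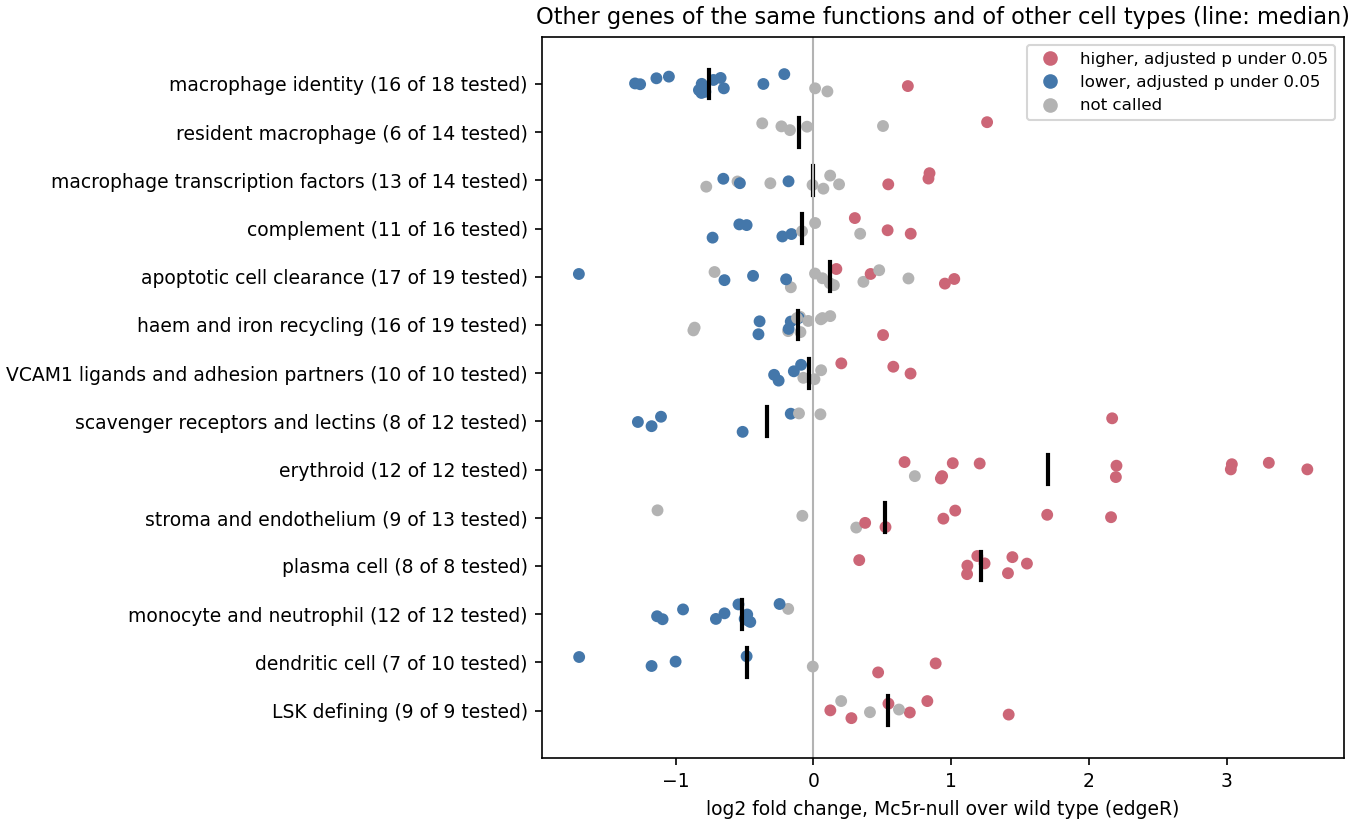
Log2 fold change of each tested gene of the fixed lists, Mc5r-null over wild type, with a black line at each list's median and colour for the call. Macrophage identity and monocyte and neutrophil genes lie mostly below 0 (medians -0.75 and -0.52), erythroid and plasma cell genes above it (1.70 and 1.22), and the complement, clearance and iron lists on both sides.

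Levels of different genes were compared per length, in the FPKM values the authors deposited, which divide counts by gene length and library total. In wild type Vcam1 (3.49 ± 0.107 FPKM) was the highest, followed by Slc40a1 (2.64 ± 0.299), C1qb (0.637 ± 0.420), Axl (0.624 ± 0.0639), Mrc1 (0.381 ± 0.0700), Cd163 (0.331 ± 0.0984), C1qa (0.215 ± 0.0372), C1qc (0.187 ± 0.0822), Spic (0.0399 ± 0.0000642) and Mertk (0.0146 ± 0.0127). The library ranges of C1qb and Axl, of Mrc1 and Cd163 and of C1qa and C1qc overlapped, so these neighbours were not separated. Beyond neighbours, the range of C1qb (0.307 to 1.11 FPKM) also overlapped those of Mrc1 and Cd163, and C1qc overlapped Cd163. In Mc5r-null the order was Vcam1 (2.97 ± 0.150 FPKM), Slc40a1 (1.58 ± 0.0752), C1qb (1.22 ± 0.0392), C1qa (1.004 ± 0.195), Axl (0.867 ± 0.181), Mrc1 (0.501 ± 0.0243), C1qc (0.409 ± 0.172), Cd163 (0.345 ± 0.0776), Spic (0.113 ± 0.0371) and Mertk (0.0506 ± 0.0244). C1qa moved from rank 7 to rank 4, and in Mc5r-null its range overlapped those of C1qb and Axl, as did those of Mrc1 and C1qc and of C1qc and Cd163. The gene length behind the FPKM of Axl is 8547 bases, against 5033 bases of merged exons in the annotation, and per kilobase of merged exons Axl ranked 3 in both genotypes, with C1qb at rank 4 in both and C1qa at rank 7 in wild type and rank 5 in Mc5r-null.

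**Figure D4:**
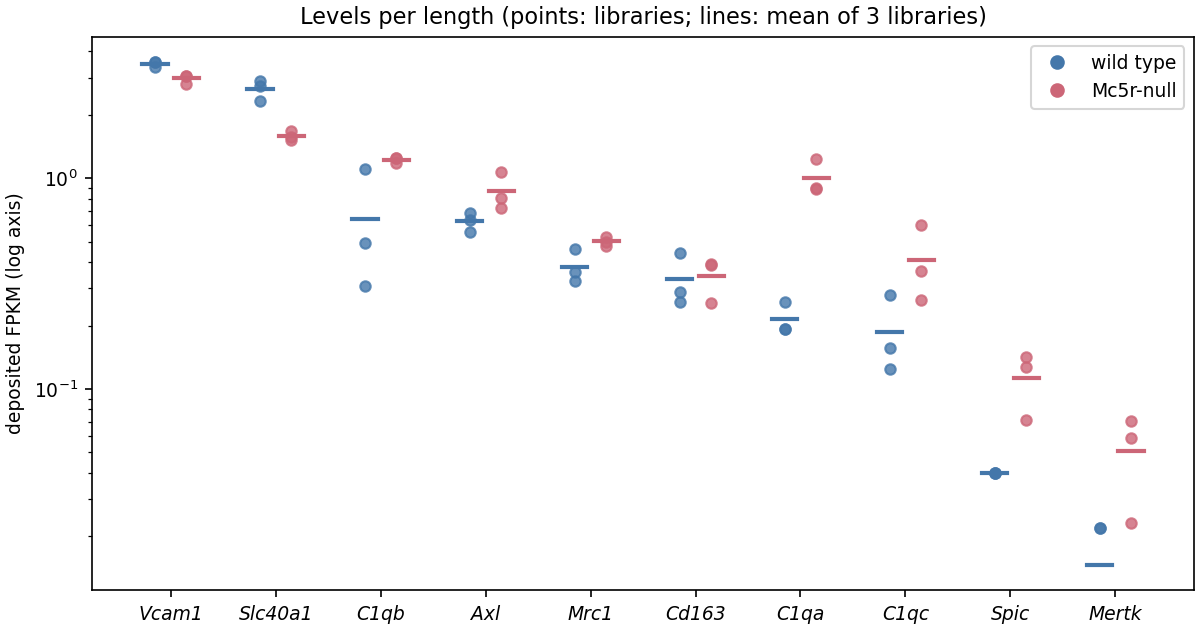
Deposited FPKM of the 10 genes on a log axis, in order of the wild-type mean, with 3 libraries per genotype (points) and their mean (lines). Vcam1 and Slc40a1 stand above the others in both genotypes and Spic and Mertk lie lowest; wild-type library 2 of Mertk is at 0 and cannot be drawn.

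Of 15250 other tested genes, the 3 whose log2 CPM followed that of the summed C1q chains most closely over the 6 libraries were Igkj4 (Pearson r = 0.998), Ptger3 (r = 0.998) and Kansl3 (r = 0.998). For Slc40a1 they were Orc3 (r = 0.996), Gmcl1 (r = 0.995) and Atox1 (r = 0.994). These values describe 6 libraries of 2 genotypes, and 499 genes for C1q and 631 for Slc40a1 had r above 0.95.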

How the data were processed

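Poly-A RNA of LSK cells was sequenced as paired-end stranded libraries, per the labels' protocols. The authors deposited 1 table with counts, which are whole-number counts per gene with no normalization, and FPKM values beside them, per the file headers. Per the submitters' processing notes CASAVA 1.8, HISAT2, StringTie and edgeR and the build GRCm38 were used, without roles, so the counting program, annotation release and use of strand are not known.

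From these counts, genes were filtered with filterByExpr in edgeR 4.0.16 under R 4.3.3 (minimum count 10, minimum total 15). Libraries were scaled by TMM, and genes were tested between genotypes, 3 libraries each, with the robust quasi-likelihood F-test and Benjamini-Hochberg adjustment over all genes tested. SEs are the log2 fold change over the square root of F. Intervals are exact 95% intervals of the summed counts. The intervals treat every count as an independent molecule and cover counting error only. PCR copies are not independent molecules, so the intervals may be too narrow even for that error. The fit was tested on simulated data. Replicate libraries differed beyond sampling noise (chi-square per degree of freedom from 6.11 to 8.40). Each was treated as 1 replicate, although such differences do not show that the libraries came from different animals.

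The 10 genes and the lists were chosen with earlier results of these data known. From each list up to 4 genes with the smallest p were named, with fixed defining markers. Some list genes are counted but not reported by name here. Lgmn, Hmox1, Tyro3, Pros1, Itga4, Itgb1, Timd4, Clec4f, Cd5l, Vsig4, Marco, Cd209f, Maea, Trf, Sirpa, Clec10a, Lepr and Col3a1 were picked with their values in view. Further fits used upper-quartile and RLE scaling, a fit without immunoglobulin and haemoglobin genes, DESeq2 1.42.0, limma-voom (limma 3.58.1), no filter, at least 1 CPM in 3 libraries, a block for replicate number and each library left out. For the 3 genes under the filter, repeats of the unfiltered fit were added after the data were seen.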

Additional observations from a re-analysis of the deposited data

How the results depend on the processing

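Of the 7 genes tested, Slc40a1 and C1qa kept their direction and call under every alternative that gave a value. C1qa entered the filtered fits through its Mc5r-null counts, and its wild-type libraries summed to 10 counts. C1qa was not tested with the filter of 1 CPM in 3 libraries. The number of the 10 genes called higher fell from 2 to 1 with DESeq2, with limma-voom, with that stricter filter and with the replicate block, and was 1 to 2 when a library was left out. The number called lower fell from 2 to 1 with DESeq2 and with the replicate block, and was 1 to 2 when a library was left out. Axl did not pass with DESeq2 (log2 fold change 0.51), limma-voom (0.49) or the replicate block (0.50, adjusted p = 0.0603), nor did Vcam1 with DESeq2 (-0.20) or the replicate block (-0.20, adjusted p = 0.0672). With a library left out, the log2 fold change was 0.33 to 0.62 for Axl, -0.23 to -0.16 for Vcam1, 0.32 to 0.58 for Mrc1, 0.64 to 1.62 for C1qb and -0.05 to 0.36 for Cd163, which turned below 0 when wild-type replicate 1 was left out (-0.0548), and at -0.00280 and -0.00188 without replicates 1 and 3 of the Mc5r-null group. Itgb1 was between -6.51e-05 and 0.0178 with a library left out. Sirpa was between -0.53 and 0.0839 with a library left out, above 0 without replicate 2 of the Mc5r-null group. The cause of these shifts was not tested. Over all genes DESeq2 called 1655 higher and 1446 lower, against 2567 and 2456 with edgeR. Equal replicate numbers did not correlate across genes (0.00255, -0.0408 and -0.0240), and 0 of the 6 libraries correlated best with their own number; the replicate block gave 2254 higher and 2148 lower. Of 48 other genes named, 36 stayed on the same side under all alternatives that gave a value. Among the fixed lists, DESeq2 called 0 higher and 1 lower of the VCAM1 partners (3 and 4 with edgeR) and 2 lower for clearance (4). DESeq2 called 1 higher for complement (3), 0 higher for iron (1) and 2 lower for scavenger receptors (5, and 3 with the block). With no filter 2 resident macrophage genes were higher (1), and with the block 1 was lower (0). Without haemoglobin genes 7 erythroid genes were higher (11). That fit leaves out Hba-a1, Hba-a2, Hbb-bs and Hbb-bt, which are among the 11. With a library left out, the transcription factors called lower numbered 3 to 5, the VCAM1 partners 1 to 3 higher and 2 to 3 lower, the complement genes 1 to 2 higher, the iron genes 0 to 1 higher and the scavenger receptors 3 to 5 lower. Scaling moved the median of all genes by less than 0.1 on the log2 scale. Depth limits C1qc, Mertk and Spic, whose sums were 4 to 37 counts per genotype. It also limits C1qa and C1qb, with 10 and 31 counts summed in wild type and 44 and 56 in Mc5r-null.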
